A study of Mus musculus with 6 samples.

Results

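The genes described here are 38 components of the integrin-to-actin linkage: proteins that switch integrins on or off from inside the cell, adaptors and kinases of the adhesion site, and the Rap1, Rac and actin machinery behind them. They were chosen by name, as the gene rows whose Ensembl identifier maps on GRCm38 to 38 listed symbols, and all 38 were found among the 39179 gene rows of each library. The rule itself uses no measured value, but the list was chosen with earlier results of these data known. The study compared the polyA RNA of induced regulatory T cells (Tregs) in 2 groups of 3 libraries each. The DEL-1-Fc group was cultured with DEL-1 joined to an antibody Fc fragment, and the Fc group with the Fc fragment as control. DEL-1 is a secreted matrix protein that binds integrins through an RGD motif. Both groups started from naive CD4+ cells of the spleen of wild type C57BL/6 mice aged 6 weeks. Both were cultured for 3 days on coated anti-CD3 (2 µg/ml, reading a misprinted unit sign in the label as micro) with anti-CD28 (1 µg/ml), TGFβ1 (5 ng/ml) and IL-2 (40 ng/ml), so that T cell receptor stimulation and TGFβ1 are shared by all libraries. The labels do not say whether the 3 libraries of a group came from separate mice or cultures, so a p-value compares the groups with the variation among these libraries, part or all of which may be technical.

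Integrins sit in the membrane mostly in a closed form that binds ligand weakly. In T cells, stimulation through the receptor activates exchange factors that load the small GTPase Rap1 with GTP, Rap1 and its adaptor bring talin to the integrin tail, and talin together with a kindlin opens the receptor. Vinculin, alpha-actinin and filamin then tie the occupied integrin to actin filaments, while focal adhesion kinases, Cas and Crk proteins relay signals to Rac, Cdc42 and related GTPases, which set filament growth and myosin pulling.

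Total counts were 33364166, 55236703 and 58075983 in DEL-1-Fc replicates 1, 2 and 3, and lay between 55318383 and 61967687 in the 3 Fc libraries. CPM here means counts scaled by TMM and by library size. A count of 0 allows a level of up to 0.0490 CPM in the deepest library and 0.0914 CPM in the shallowest (the level of 3 counts, covering counting error only). DEL-1-Fc replicate 1, the shallowest library, stood apart from DEL-1-Fc replicates 2 and 3 on both leading principal components (44% and 23.3% of the variance of all tested genes), lying further from the Fc libraries than they did on the first. It also read short genes high and long genes low, by 0.13 and -0.13 on the log2 scale at annotated exon lengths of 853 and 9195 bases, while the other 5 libraries stayed between -0.04 and 0.05. Among the 36 members tested, it was the highest of the 6 libraries in 18 and the lowest in 4. The same count was not made over all tested genes. The part of this library in any result was not tested beyond leaving it out and removing the length trend, and results that move when it is left out are given beside their values.

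The 5′ ends of the 4 called members with the largest log2 fold change in size among those with a window are shown first, because the labelled study concerns a transcription factor of the RUNX family and because vinculin is a textbook target of serum response factor, the regulator of many cytoskeletal genes. RefSeq promoter windows on GRCm38.p6, from 250 bases before to 50 bases after an annotated start, matched 30 of the 38 members (38 windows). Pxn, Rac2, Ptk2b, Ptk2, Rac1, Parva, Sharpin and Rap1a had no window there. The 4 windows below belong to Pfn2, a profilin (chr3:57847708-57848007, minus strand), Rasgrp2, a Rap1 exchange factor (chr19:6399625-6399924, plus strand, the first of its 2 windows), Vcl, vinculin (chr14:20929148-20929447, plus strand), and Actn1, alpha-actinin 1 (chr12:80260314-80260613, minus strand). Each is written 5′ to 3′ in the direction of transcription, and capitals mark a CArG box, the site type of serum response factor.
Pfn2: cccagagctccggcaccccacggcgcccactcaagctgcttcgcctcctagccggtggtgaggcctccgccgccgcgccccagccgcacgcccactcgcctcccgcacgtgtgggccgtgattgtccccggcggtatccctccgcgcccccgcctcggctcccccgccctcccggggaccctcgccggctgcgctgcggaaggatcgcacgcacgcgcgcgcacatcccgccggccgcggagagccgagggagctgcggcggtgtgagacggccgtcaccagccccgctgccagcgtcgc
Rasgrp2: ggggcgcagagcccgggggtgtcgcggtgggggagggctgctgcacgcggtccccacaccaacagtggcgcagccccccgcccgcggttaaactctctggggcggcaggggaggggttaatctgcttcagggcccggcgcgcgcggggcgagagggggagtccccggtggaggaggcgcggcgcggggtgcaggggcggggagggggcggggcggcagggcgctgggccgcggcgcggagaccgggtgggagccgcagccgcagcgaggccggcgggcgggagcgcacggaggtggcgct
Vcl: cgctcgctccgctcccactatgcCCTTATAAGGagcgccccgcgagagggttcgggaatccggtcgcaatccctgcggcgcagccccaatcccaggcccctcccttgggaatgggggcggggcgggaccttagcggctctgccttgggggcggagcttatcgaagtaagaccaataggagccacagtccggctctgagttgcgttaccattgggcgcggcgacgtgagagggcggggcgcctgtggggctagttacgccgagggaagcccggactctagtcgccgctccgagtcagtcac
Actn1: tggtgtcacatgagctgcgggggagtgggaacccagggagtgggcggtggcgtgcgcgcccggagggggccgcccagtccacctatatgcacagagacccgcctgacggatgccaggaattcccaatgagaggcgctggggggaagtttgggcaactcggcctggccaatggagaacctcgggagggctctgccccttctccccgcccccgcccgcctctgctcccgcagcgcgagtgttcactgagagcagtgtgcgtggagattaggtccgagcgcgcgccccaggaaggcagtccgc

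A CArG box was found in 1 of the 30 matched members, Vcl, from 227 to 218 bases before the start, and in 1.63% of all 32851 windows. The RUNX-type hexamer TGTGGT, searched on both strands, was found in 4 matched members and in 16.8% of all windows. These 4 were Fermt3, Ilk, Parvg and Was, none of which passed the test of expression below. The 2 motifs did not overlap each other in any member. A match describes the letters of the window and is not evidence of binding. The windows were rich in G and C, with 77.7% in Pfn2, 80.0% in the first window of Rasgrp2, 66.7% in Vcl and 68.3% in Actn1.

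Most of the machinery differed little between the groups, while Pfn2 and Rasgrp2 rose clearly with DEL-1-Fc. Rac2 was also called higher, and Actn1, Vcl and Rap1b were called lower. The changes of these other called members were smaller, and each lost its call in some of the alternative settings given below. Of the 38 members, 36 passed the filter on low counts. Of these 36, 3 were called higher and 3 lower at an adjusted p under 0.05 in edgeR's quasi-likelihood test over all genes, and 30 did not pass. The share of members called was 16.7%, against 12.6% of all 14928 genes tested. Because the members were chosen with earlier results known, these shares are descriptive and were not compared by a test. Among all genes, 6.40% were called higher and 6.22% lower. The median log2 fold change of the tested members was 0.03, beside 0.01 for all tested genes, and the median size of the change without its sign was 0.12, beside 0.16. In 28 of the 36 the log2 fold change was under 0.25 in size, beside 9752 of all 14928 genes tested.

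**Figure D1:**
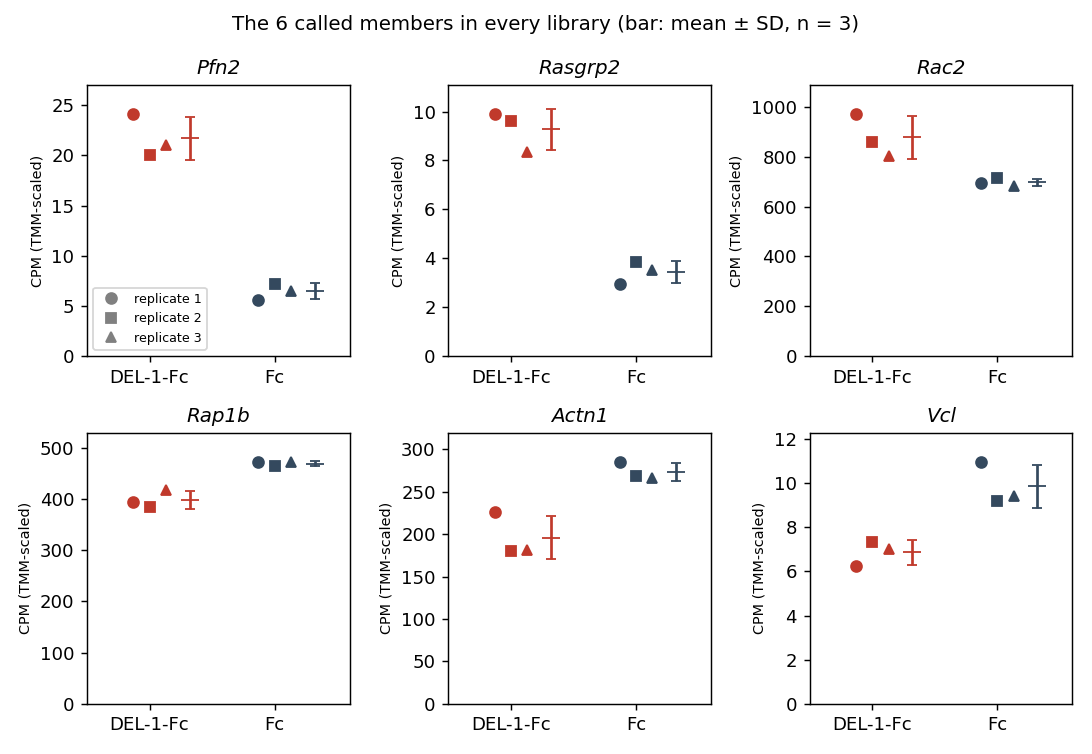
CPM (TMM-scaled, vertical axes starting at 0) of the 6 members called in edgeR's test, in each DEL-1-Fc library (left in each panel) and each Fc library (right), with the mean and SD of 3 libraries beside the points. The DEL-1-Fc libraries lie above all Fc libraries for Pfn2, Rasgrp2 and Rac2, and below them for Rap1b, Actn1 and Vcl.

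The number of members called depended on single libraries. With 1 Fc library left out, whichever it was, 2 members were called higher, and 0, 2 and 1 were called lower without Fc replicate 1, 2 and 3. Leaving out DEL-1-Fc replicate 1, 2 or 3 gave 4, 5 and 4 members higher and 4, 3 and 2 lower. The share of all genes called moved as well, and was 5.95% without Fc replicate 1, 6.40% without Fc replicate 2, 6.32% without Fc replicate 3, 19.7% without DEL-1-Fc replicate 1, 11.4% without DEL-1-Fc replicate 2 and 8.56% without DEL-1-Fc replicate 3. Pfn2 and Rasgrp2 were called under each of the 16 alternative settings run, while Rac2, Rap1b, Vcl and Actn1 each lost their call when some single library was left out, as given beside each gene.

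The first group holds 7 genes of integrin activation: talin (Tln1), kindlin-3 (Fermt3), the Rap1 adaptor RIAM (Apbb1ip), the GTPases Rap1a and Rap1b, and the Rap1 exchange factors Rapgef1 and CalDAG-GEFI (Rasgrp2). Of these 7, 1 rose, 1 fell and 5 did not pass. Such counts, here and for the groups below, come from few genes and stand beside the 12.6% of all tested genes called. They were not tested as a trait of any group. Rasgrp2 encodes the calcium- and diacylglycerol-regulated exchange factor that loads Rap1 in platelets and neutrophils. It had 9.90, 9.62 and 8.33 CPM in the 3 DEL-1-Fc libraries, against 2.94, 3.84 and 3.50 CPM in the 3 Fc libraries. Every DEL-1-Fc library was far above every Fc library. The means were 9.29 ± 0.838 CPM with DEL-1-Fc and 3.43 ± 0.451 CPM with Fc (SD, n = 3 each), a 2.71-fold higher level (log2 fold change 1.44, SE 0.13, edgeR adjusted p = 0.000299). Leaving out any 1 library kept the log2 fold change between 1.34 and 1.53. The antisense gene Gm14965, whose exons overlap those of Rasgrp2 on the other strand, was near 0 (0.00590 CPM with DEL-1-Fc and 0.00607 CPM with Fc). In bulk RNA, a change in the share of cells that carry a transcript and a change in its amount per cell cannot be told apart, here and for every gene below.

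Rap1b, at 151 CPM per kb of exon the more abundant Rap1 isoform (Rap1a was at 29.8), moved the other way and by little. It had 393, 385 and 418 CPM in the DEL-1-Fc libraries, against 472, 464 and 473 CPM in the Fc libraries. All 3 DEL-1-Fc libraries lay below all 3 Fc libraries. Rap1b was 1.18-fold lower with DEL-1-Fc (log2 fold change -0.24, SE 0.06, edgeR adjusted p = 0.0398). Rap1b no longer passed when Fc replicate 1, 2 or 3 was left out (adjusted p 0.161, 0.143 and 0.157), when DEL-1-Fc replicate 2 was (0.0854), with library sizes in place of TMM scaling (0.0673), or with no filter on low counts (0.0626). Rap1a had 113, 67.1 and 75.5 CPM in the DEL-1-Fc libraries and 68.2, 68.1 and 73.5 CPM in the Fc libraries. DEL-1-Fc replicate 1 alone stood high, the groups overlapped, and the log2 fold change of 0.28 (SE 0.19) did not pass. Rap1a shares 14.6% of its 31-base words with processed copies (Gm9392 and Rap1a-ps2), so its counts may be split.

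The remaining activators did not pass. Tln1, which unlocks the integrin tail, averaged 579 ± 21.9 CPM with DEL-1-Fc and 557 ± 8.73 CPM with Fc (SD, n = 3 each). Fermt3, the kindlin of blood cells, averaged 329 ± 29.0 CPM with DEL-1-Fc and 299 ± 6.11 CPM with Fc, and its groups did not overlap (log2 fold change 0.14, SE 0.07, edgeR adjusted p = 0.272). Apbb1ip averaged 139 ± 18.8 CPM with DEL-1-Fc and 144 ± 3.56 CPM with Fc. Rapgef1 averaged 208 ± 16.7 CPM with DEL-1-Fc and 222 ± 12.7 CPM with Fc. The largest change of the 7 was in its least abundant gene, Rasgrp2, at 0.513 CPM per kb of annotated exon on average over the groups.

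The 2 inhibitors of integrin activation did not pass. Sharpin, which binds integrin alpha tails, had 76.6, 66.8 and 61.7 CPM in the DEL-1-Fc libraries and 70.5, 68.6 and 69.5 CPM in the Fc libraries, with overlap. Itgb1bp1, ICAP-1, which binds the beta1 tail, had 40.4, 32.8 and 37.0 CPM in the DEL-1-Fc libraries and 31.2, 31.5 and 31.5 CPM in the Fc libraries. Its groups did not overlap, but the log2 fold change of 0.22 (SE 0.08) had an adjusted p of 0.117 in edgeR's test. Without DEL-1-Fc replicate 2 it was called higher (adjusted p 0.0365). Its sequence is shared in 20.04% of 31-base words with other genes, mainly Asap2 and Cpsf3 on the other strand.

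The complex of integrin-linked kinase, Pinch and parvin, which couples the beta tail to actin, is represented by Ilk, Lims1 and the 3 parvins. Parvg, the parvin of blood cells, was the parvin measured in these cells. It had 176, 175 and 166 CPM in the DEL-1-Fc libraries, against 156, 158 and 154 CPM in the Fc libraries. The groups did not overlap, but the log2 fold change of 0.14 (SE 0.06) did not pass (edgeR adjusted p = 0.141). Parva had 0 counts in every library. Parvb had 2, 6 and 0 counts in the DEL-1-Fc libraries and 4, 5 and 1 counts in the Fc libraries, so neither could be tested. Lims1, Pinch-1, averaged 63.0 ± 3.18 CPM with DEL-1-Fc and 65.3 ± 2.86 CPM with Fc. Ilk was listed at 3.15 ± 0.700 CPM with DEL-1-Fc and 3.09 ± 0.189 CPM with Fc (SD, n = 3 each). Its level is uncertain, since 92.8% of its 31-base words are shared with other genes, led by Taf10, Gm6263 and Rrp8. Exons of Taf10 and Rrp8 overlap those of Ilk on the other strand. Whether the counting used strand, and how it treated multi-mapping reads, is not given in the sources used here.

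Among the 9 scaffolds and kinases of the adhesion site, 1 fell and 8 did not pass. Vcl encodes vinculin, which binds stretched talin and actin and strengthens adhesions under force. It had 6.25, 7.36 and 7.02 CPM in the DEL-1-Fc libraries, against 10.98, 9.19 and 9.43 CPM in the Fc libraries. All DEL-1-Fc libraries were below all Fc libraries, and Fc replicate 1 was the highest of the 6. Vcl was 1.43-fold lower with DEL-1-Fc (means 6.87 ± 0.570 and 9.87 ± 0.970 CPM with DEL-1-Fc and Fc, SD, n = 3 each). The log2 fold change was -0.52 with an SE of 0.11 (edgeR adjusted p = 0.0182). Vcl no longer passed when Fc replicate 1 (adjusted p 0.0940), Fc replicate 3 (0.0601) or DEL-1-Fc replicate 3 (0.0561) was left out. Vcl shares 39.4% of its 31-base words with Ap3m1 on the other strand, which makes its level uncertain. Ap3m1 averaged 79.7 CPM with DEL-1-Fc and 85.8 CPM with Fc (log2 fold change -0.11, edgeR adjusted p = 0.647). The Vcl window printed above is the one with the CArG box.

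Zyx, zyxin, was the most abundant of these 9 per exon length. It had 179, 158 and 126 CPM in the DEL-1-Fc libraries and 133, 134 and 127 CPM in the Fc libraries. DEL-1-Fc replicate 3 lay below the Fc libraries and the other two above them, so the groups overlapped. The log2 fold change of 0.24 (SE 0.11) did not pass (edgeR adjusted p = 0.229). Leaving out DEL-1-Fc replicate 3 made zyxin a call on the higher side (adjusted p 0.0273). Pxn, paxillin, averaged 93.9 ± 7.44 CPM with DEL-1-Fc and 101 ± 5.55 CPM with Fc. The kinase Src was low, with 3.38 ± 0.109 CPM with DEL-1-Fc and 3.03 ± 0.217 CPM with Fc, and the scaffold p130Cas (Bcar1) was lower still, with 0.609 ± 0.192 CPM with DEL-1-Fc and 0.884 ± 0.141 CPM with Fc (SD, n = 3 each). Neither passed, and Bcar1 rests on 23 to 58 counts per library.

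Of the focal adhesion kinases, Pyk2 (Ptk2b), the form prominent in blood cells, was the more abundant per exon length, at 19.7 CPM per kb beside 1.03 CPM per kb for Fak (Ptk2). Ptk2b had 141, 148 and 135 CPM in the DEL-1-Fc libraries and 159, 150 and 142 CPM in the Fc libraries. Ptk2 had 12.4, 12.0 and 13.5 CPM in the DEL-1-Fc libraries and 11.9, 12.3 and 11.02 CPM in the Fc libraries. Both pairs of groups overlapped and neither gene passed. The adaptor Crk had 54.1, 65.2 and 67.6 CPM in the DEL-1-Fc libraries and 63.2, 60.1 and 62.8 CPM in the Fc libraries. Its relative Crkl had 70.0, 79.3 and 75.1 CPM in the DEL-1-Fc libraries, against 79.7, 81.3 and 82.5 CPM in the Fc libraries. Crk overlapped between the groups. Crkl did not, with every DEL-1-Fc library lower, but its log2 fold change of -0.12 (SE 0.06) did not pass (edgeR adjusted p = 0.283).

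Among the 4 crosslinkers and myosin genes, 1 fell and 3 did not pass. Actn1, alpha-actinin 1, bundles actin filaments and binds integrin beta tails. It had 226, 181 and 182 CPM in the DEL-1-Fc libraries, against 285.5, 269 and 266 CPM in the Fc libraries. DEL-1-Fc replicate 1 was the highest of its group and still below every Fc library. Actn1 was 1.40-fold lower with DEL-1-Fc (means 196 ± 25.7 and 274 ± 10.5 CPM with DEL-1-Fc and Fc, SD, n = 3 each). The log2 fold change was -0.48 with an SE of 0.09 (edgeR adjusted p = 0.0100). Of the settings tried, only leaving out Fc replicate 1 ended the call (adjusted p 0.0620). Its relative Actn4 had 566, 561 and 515 CPM in the DEL-1-Fc libraries and 548, 546 and 525 CPM in the Fc libraries, with overlap. Flna, filamin A, averaged 613 ± 30.0 CPM with DEL-1-Fc and 562 ± 10.2 CPM with Fc, with no overlap (log2 fold change 0.13, SE 0.07, edgeR adjusted p = 0.257). Myh9, the heavy chain of non-muscle myosin IIA, averaged 1193 ± 81.6 CPM with DEL-1-Fc and 1099 ± 15.9 CPM with Fc, with overlap.

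Of the 5 genes for cytoskeletal GTPases and their activator, 1 rose and 4 did not pass. Rac2 encodes the Rac GTPase restricted to blood cells, which drives actin assembly at the leading edge. It had 973, 858 and 803.5 CPM in the DEL-1-Fc libraries, against 697, 713 and 684 CPM in the Fc libraries. All DEL-1-Fc libraries were above all Fc libraries, with replicate 1 the highest. Rac2 was 1.26-fold higher with DEL-1-Fc (means 878 ± 86.3 and 698 ± 14.6 CPM with DEL-1-Fc and Fc, SD, n = 3 each). The log2 fold change was 0.33 with an SE of 0.08 (edgeR adjusted p = 0.0311). Rac2 no longer passed when Fc replicate 1, 2 or 3 was left out (adjusted p 0.133, 0.106 and 0.129). Rac1 had 453, 389 and 368 CPM in the DEL-1-Fc libraries and 425, 439 and 431 CPM in the Fc libraries. DEL-1-Fc replicate 1 was the highest of the 6 and the other DEL-1-Fc libraries the lowest. Rac1 did not pass with all libraries (log2 fold change -0.10, SE 0.08), and without DEL-1-Fc replicate 1 it was called lower (adjusted p 0.0261). It shares 55.8% of its 31-base words with other genes, mainly Daglb on the other strand, so its level is uncertain. Cdc42 averaged 566.5 ± 11.6 CPM with DEL-1-Fc and 534 ± 14.4 CPM with Fc, with no overlap but no call. Rhoa averaged 389 ± 91.2 CPM with DEL-1-Fc and 361.5 ± 22.0 CPM with Fc, and the Rac activator Dock2 averaged 335 ± 25.5 CPM with DEL-1-Fc and 342 ± 6.71 CPM with Fc (SD, n = 3 each).

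Of the 6 regulators of actin monomers, filaments and nucleation, 1 rose and 5 did not pass. Profilins hand actin monomers to growing filaments. Pfn2, the profilin best known from neurons, showed the largest fold difference of all 36 tested members. It had 24.1, 19.99 and 21.1 CPM in the DEL-1-Fc libraries, against 5.59, 7.18 and 6.52 CPM in the Fc libraries. Every DEL-1-Fc library was well above every Fc library. The means were 21.7 ± 2.15 CPM with DEL-1-Fc and 6.43 ± 0.802 CPM with Fc (SD, n = 3 each), a 3.38-fold higher level (log2 fold change 1.76, SE 0.12, edgeR adjusted p = 7.26e-05). Leaving out any 1 library kept the log2 fold change between 1.66 and 1.84. Pfn1, the general profilin and the most abundant member per exon length, had 2339, 2024 and 1958 CPM in the DEL-1-Fc libraries and 2026, 2116 and 1988 CPM in the Fc libraries. The groups overlapped and Pfn1 did not pass (log2 fold change 0.04, SE 0.09).

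Coro1a, coronin 1A, a filament regulator of T cells, came nearest to a call among those that did not pass. It had 1146, 779.7 and 822 CPM in the DEL-1-Fc libraries, against 669, 688 and 734 CPM in the Fc libraries. The groups did not overlap, and DEL-1-Fc replicate 1 was far above the rest. With all libraries the log2 fold change was 0.39 (SE 0.14, edgeR adjusted p = 0.101). Leaving out DEL-1-Fc replicate 1 made it smaller, at 0.20, and it passed (adjusted p 0.0370). It also passed when DEL-1-Fc replicate 2 was left out (log2 fold change 0.50, adjusted p 0.0474) and in DESeq2 (adjusted p 0.0328). Cfl1, cofilin, which severs filaments, averaged 2067 ± 244 CPM with DEL-1-Fc and 1819 ± 122 CPM with Fc, with overlap. It shares 27.9% of its 31-base words with other genes, among them Snx32 on the other strand, which was itself called higher (log2 fold change 0.43, edgeR adjusted p = 0.0325). The nucleation factor Was, the Wiskott-Aldrich protein, averaged 119 ± 13.7 CPM with DEL-1-Fc and 120.1 ± 4.76 CPM with Fc. Wasf2, WAVE2, averaged 243.5 ± 25.1 CPM with DEL-1-Fc and 284 ± 10.9 CPM with Fc, with every DEL-1-Fc library lower but no call (log2 fold change -0.22, SE 0.08, edgeR adjusted p = 0.118). It was called lower without DEL-1-Fc replicate 2 (adjusted p 0.0238).

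**Figure D2:**
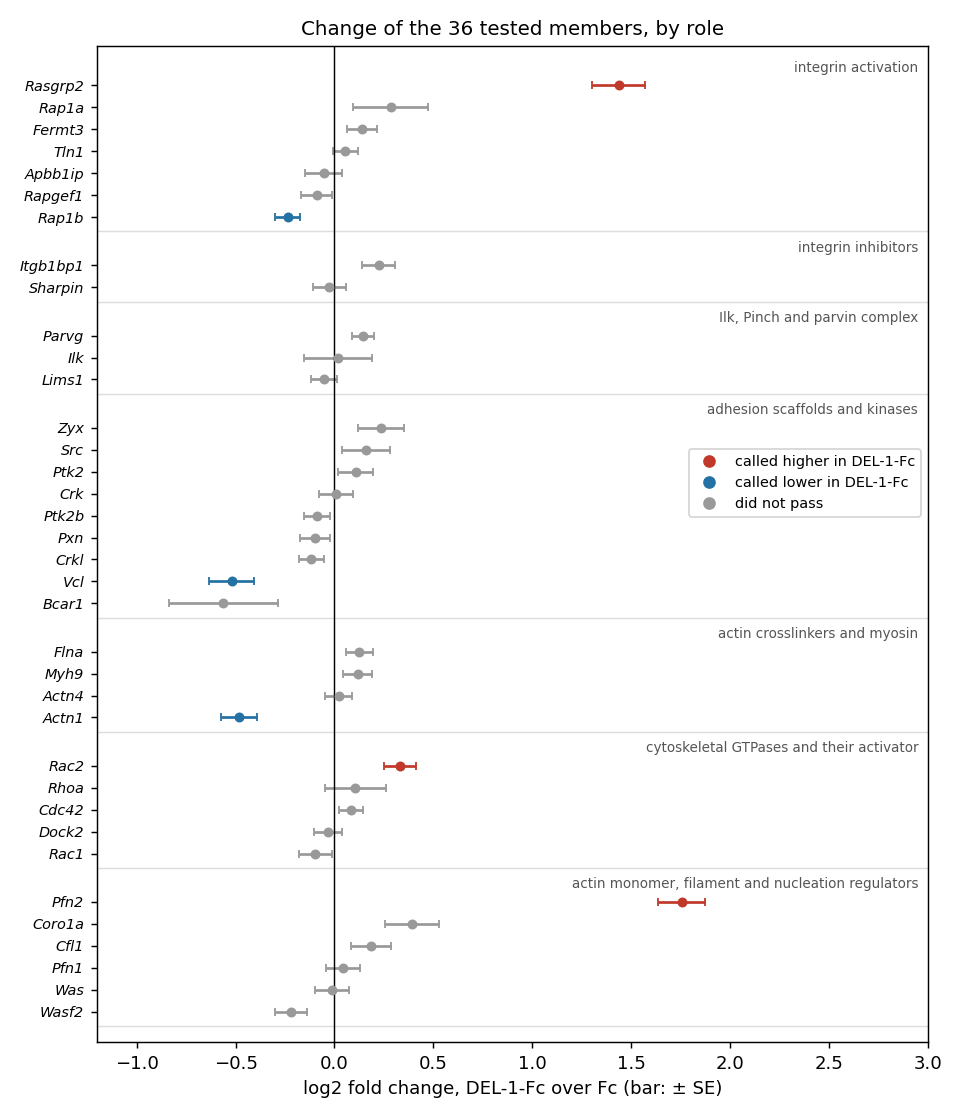
Log2 fold change of DEL-1-Fc over Fc (horizontal axis, bars ± SE) for the 36 tested members, grouped by role. Pfn2 at 1.76 and Rasgrp2 at 1.44 stand alone on the right, and 28 of the 36 lie within 0.25 of 0. Of all 14928 tested genes (not shown), 9752 lie within 0.25 of 0.

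Counting libraries in place of a model, 15 of the 36 tested members (41.7%) had groups that did not overlap, 10 with DEL-1-Fc above and 5 with DEL-1-Fc below. Among all 14928 tested genes the share was 34.8%. Of these 15 members, 9 were not called: Fermt3, Itgb1bp1, Parvg, Src, Flna, Cdc42 and Coro1a with DEL-1-Fc above, and Crkl and Wasf2 with DEL-1-Fc below.

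**Figure D3:**
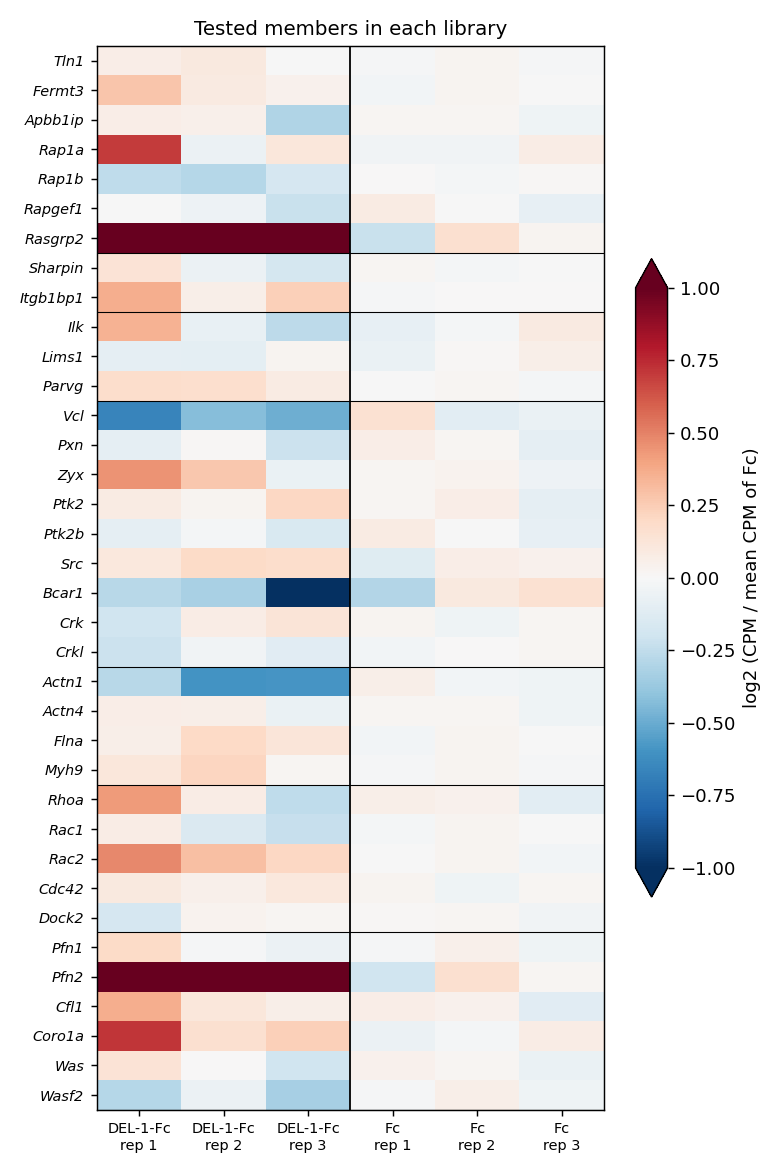
Log2 of each library's CPM over the mean of the 3 Fc libraries (colour, from -1 to 1) for the 36 tested members in rows by role, with the DEL-1-Fc libraries in the left 3 columns and the Fc libraries in the right 3. Pfn2 and Rasgrp2 are high in all 3 DEL-1-Fc libraries, and DEL-1-Fc replicate 1 is the highest of the 6 libraries in 18 members.

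Compared per length of annotated exon, the levels of the members spanned several orders of magnitude. Pfn1 led with 863 CPM per kb on average over the groups, followed by Cfl1 with 683, Coro1a with 290, Rac2 with 254, Cdc42 with 186 and Rap1b with 151 CPM per kb. These are actin regulators and GTPases. Cfl1 and Pfn1 overlapped in range within the DEL-1-Fc group, where Pfn1 spanned 814 to 972.5 and Cfl1 spanned 665 to 824 CPM per kb. Actn4 and Myh9, both at 88.7 CPM per kb, overlapped in range in both groups. At the low end Ilk, Ptk2 and Vcl lay near 1 CPM per kb (1.14, 1.03 and 1.02), followed by Src with 0.734, Rasgrp2 with 0.513 and Bcar1 with 0.164 CPM per kb. Pfn2, with 3.98 CPM per kb, ranked 30 of the 38. The 2 largest fold differences, of Pfn2 and Rasgrp2, belonged to members of low level. The levels of Cfl1, Ilk and Vcl are uncertain, since 27.9%, 92.8% and 39.4% of their 31-base words are shared with other genes. The divisor, the union of all annotated exons, is 12384 bases for Rasgrp2 and 11803 for Ptk2, so the order also depends on the annotation.

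**Figure D4:**
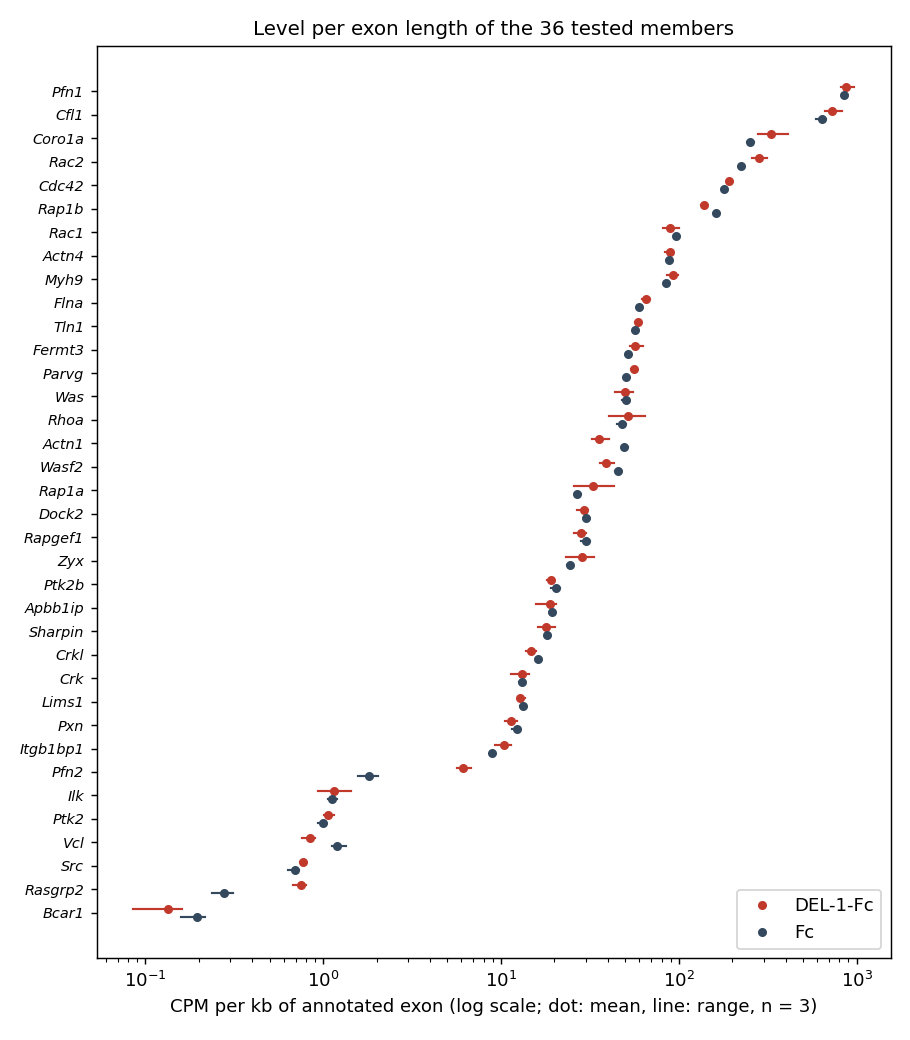
Level per kb of annotated exon (log scale) of the 36 tested members, ordered by mean, with dots for the means of the DEL-1-Fc and Fc libraries and lines for the range of 3 libraries each. The ranges overlap or nearly touch for most members, while Pfn2 and Rasgrp2 are clearly apart, with DEL-1-Fc to the right.

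Several members come as paralogues, and the ratio of a pair within one library does not depend on the scaling between libraries. Of 8 pairs listed, 6 had enough counts to compare, and 4 of these did not overlap between the groups. With 3 libraries against 3, the exact two-sided permutation test cannot give a p below 0.1, which was its value for each of these 4 (0.15 after Benjamini-Hochberg adjustment over the 6 pairs). The same count was not made over other gene pairs, and these pairs were chosen with earlier results of these data known. The count of 4 therefore cannot be judged as a result about paralogues. Taken singly, 34.8% of all tested genes did not overlap between the groups. The count ratio of Pfn2 to Pfn1 was -6.60 ± 0.06 with DEL-1-Fc and -8.32 ± 0.16 with Fc on the log2 scale (SD, n = 3 each), a difference of 1.72. Per exon length, Pfn2 made up 0.696% of the pair with DEL-1-Fc and 0.213% with Fc, so Pfn1 remained nearly all of the profilin RNA.

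The Rac pair was the tightest. The log2 count ratio of Rac1 to Rac2 was -1.10, -1.14 and -1.13 in the DEL-1-Fc libraries, against -0.71, -0.70 and -0.67 in the Fc libraries. The DEL-1-Fc libraries had an SD of 0.02 and lay well below the Fc libraries, also in replicate 1, where both genes read high. The difference was -0.43. Rac1 made up 24.1 ± 0.243% of the pair per exon length with DEL-1-Fc and 29.9 ± 0.347% with Fc (SD, n = 3 each). That share is uncertain, since 55.8% of the 31-base words of Rac1 are shared with other genes. The ratio of Actn1 to Actn4 was -1.49 ± 0.15 with DEL-1-Fc and -0.98 ± 0.04 with Fc, a difference of -0.51. The ratio of Rap1a to Rap1b was -2.26 ± 0.40 with DEL-1-Fc and -2.75 ± 0.05 with Fc. Its difference of 0.49 rested largely on DEL-1-Fc replicate 1 and was 0.25 without it. The ratio of Ptk2 to Ptk2b differed by 0.20 and that of Crk to Crkl by 0.12, both with overlapping groups (exact permutation p = 0.2, and 0.2 after adjustment).

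**Figure D5:**
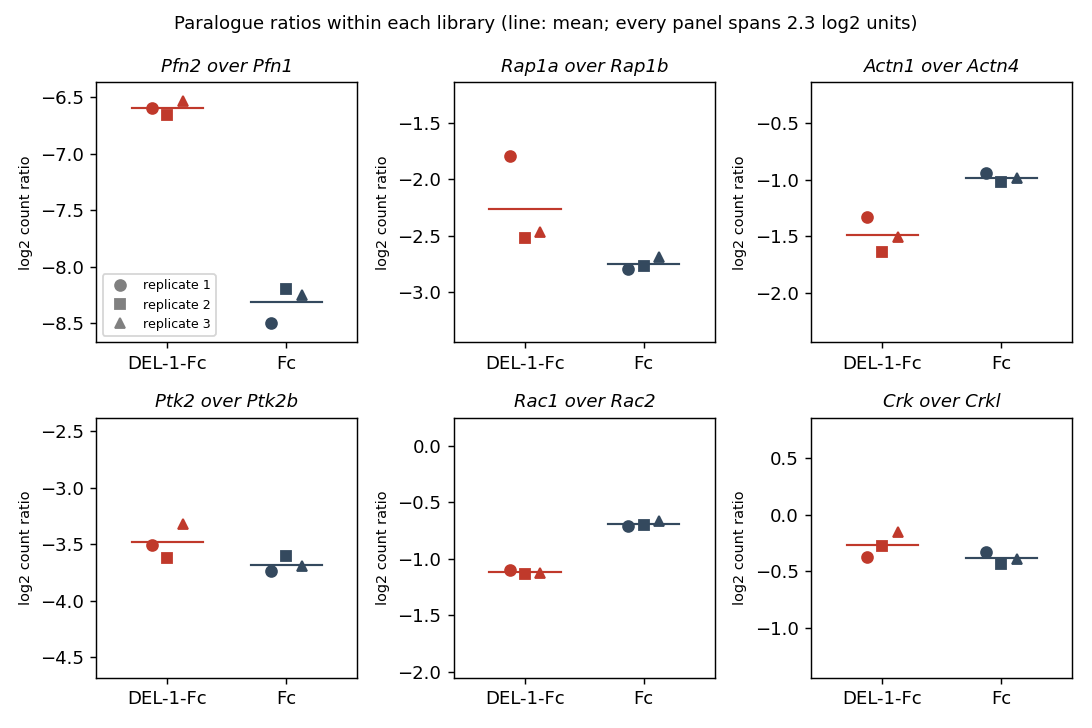
Log2 ratio of the counts of paralogues within each library for 6 pairs, with DEL-1-Fc left and Fc right in each panel, a line at the mean of 3 libraries, and the same span on every vertical axis. Pfn2 over Pfn1 and Rap1a over Rap1b lie higher in all DEL-1-Fc libraries, and Actn1 over Actn4 and Rac1 over Rac2 lie lower in all of them.

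A wider list of 115 other integrin, adhesion and actin genes was picked for function, also with earlier results of these data known. It gave 109 tested genes, of which 14 were called higher and 8 lower (20.2%, beside 12.6% of all tested genes), and its median log2 fold change was 0.00. These counts were 6 higher and 2 lower without Fc replicate 1 or 2, 7 and 2 without Fc replicate 3, 11 and 3 without DEL-1-Fc replicate 3, and 23 and 12 without DEL-1-Fc replicate 1. Named by size of change among genes of at least 5 CPM, Enah, an Ena/VASP protein that extends filaments, averaged 7.29 ± 1.88 CPM with DEL-1-Fc and 2.92 ± 0.460 CPM with Fc (log2 fold change 1.32, SE 0.20, edgeR adjusted p = 0.00313). Rasa3, a GTPase-activating protein that switches Rap1 off in platelets and so counters Rasgrp2 there, averaged 97.7 ± 8.31 CPM with DEL-1-Fc and 61.3 ± 5.29 CPM with Fc (log2 fold change 0.67, edgeR adjusted p = 0.00140). Capg, a filament capping protein, averaged 407 ± 73.9 CPM with DEL-1-Fc and 265.5 ± 17.3 CPM with Fc (log2 fold change 0.62, edgeR adjusted p = 0.0110). An exchange factor for Rap1 among the members and a Rap1 inactivator outside them both rose. Sipa1, a more abundant Rap1 inactivator of the wider list, was not called (160.5 CPM with DEL-1-Fc and 159.9 CPM with Fc).

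On the lower side, Wipf1, the partner that stabilises the Wiskott-Aldrich protein, averaged 277 ± 20.96 CPM with DEL-1-Fc and 386 ± 15.2 CPM with Fc (log2 fold change -0.48, edgeR adjusted p = 0.00360). Vav2, an exchange factor for Rac GTPases, averaged 48.5 ± 2.07 CPM with DEL-1-Fc and 62.3 ± 1.81 CPM with Fc (log2 fold change -0.36, edgeR adjusted p = 0.00597). Myh10, the heavy chain of non-muscle myosin IIB, averaged 8.88 ± 0.569 CPM with DEL-1-Fc and 11.8 ± 0.798 CPM with Fc (log2 fold change -0.40, edgeR adjusted p = 0.0278). The call of Myh10 was lost without any 1 of the Fc libraries or DEL-1-Fc replicate 3, and that of Capg without Fc replicate 1 or 2. Was itself, the partner of Wipf1, was at 119 CPM with DEL-1-Fc and 120.1 CPM with Fc.

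The label of induced Tregs was checked against markers. Foxp3, the lineage factor, averaged 523 ± 59.7 CPM with DEL-1-Fc and 359.5 ± 50.1 CPM with Fc (SD, n = 3 each, edgeR adjusted p = 0.0166) and was called higher. Ctla4, an inhibitory receptor of Tregs, averaged 424.5 ± 35.03 CPM with DEL-1-Fc and 524 ± 13.7 CPM with Fc and was called lower (edgeR adjusted p = 0.0310). The other 3 of the 5 Treg markers, Il2ra, Ikzf2 and Tnfrsf18, were not called, with log2 fold changes of 0.05, -0.10 and -0.16. The 7 T cell markers summed to 2700 to 2965 CPM with DEL-1-Fc and 2679 to 2801 CPM with Fc. Of these 7, Cd28 was called higher (255 CPM with DEL-1-Fc and 218 CPM with Fc, edgeR adjusted p = 0.0385), and Cd3e, Cd3g and Cd5 did not overlap between the groups but were not called (log2 fold changes 0.11, 0.28 and -0.15). Since Rasgrp2, Vcl, Fermt3 and Rap1b are also platelet genes, 8 platelet and megakaryocyte markers were summed. They reached 1.25 to 1.84 CPM with DEL-1-Fc and 1.66 to 1.73 CPM with Fc, and Pf4, Ppbp, Gp9 and Gp6 had 0 counts in all 6 libraries. The 6 myeloid markers summed to 4.27 to 4.69 CPM with DEL-1-Fc and 4.70 to 5.04 CPM with Fc, and 5 of them were under 1 CPM. The 5 NK cell markers summed to 99.6 to 113 CPM with DEL-1-Fc and 192 to 218 CPM with Fc, nearly all of it Eomes, which activated T cells also express, with Ncr1 at 0 counts. The 6 B cell markers summed to 6.14 to 7.56 CPM with DEL-1-Fc and 5.94 to 7.51 CPM with Fc, and Ebf1 among them was called lower (0.430 CPM with DEL-1-Fc and 1.14 CPM with Fc). The 2 CD8 markers summed to 11.9 to 12.8 CPM with DEL-1-Fc and 10.1 to 10.4 CPM with Fc. Cd8a was called higher (4.06 CPM with DEL-1-Fc and 2.37 CPM with Fc). Cd8b1, the more abundant of the 2, overlapped between the groups and was not called (8.20 CPM with DEL-1-Fc and 7.96 CPM with Fc, log2 fold change 0.04). The 6 stromal markers summed to 0.548 to 0.810 CPM with DEL-1-Fc and 0.565 to 0.783 CPM with Fc, with Col3a1, Dcn and Pdgfra at 0 counts. The part of these cell types in the results was not tested.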

How the data were processed

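RNA of 6 libraries, 3 DEL-1-Fc and 3 Fc, was measured by polyA-selected RNA-seq. The authors deposited 1 file of raw read counts per gene for each library, with 39179 Ensembl gene rows and no row of unassigned reads. The submitters' processing notes name STAR, HTSeq 0.6.0 and GRCm38 (mm10). For the annotation release, the strand setting and multi-mapping reads, the entry is: not given in the sources used here. If reads were counted without strand, genes that overlap on opposite strands lose or share counts.

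Identifiers were matched to GENCODE M21 (37693 of 39179 rows). Counts were tested with edgeR 4.0.16 in R 4.3.3 (filterByExpr with a minimum count of 10, TMM scaling, robust quasi-likelihood fit, DEL-1-Fc over Fc), with Benjamini-Hochberg adjustment over the 14928 genes kept and a threshold of 0.05. CPM values are TMM-scaled, levels per kb use the union of annotated exons, and SE is the log2 fold change divided by the root of its F statistic. Paralogue ratios are log2 ratios of raw counts with 0.5 added. Words of 31 bases shared with other genes' exons mark uncertain counts, at 20% or more. Alternatives were other scaling (RLE, upper-quartile, library sizes alone), other filters (none, or 5 CPM in 3 libraries), DESeq2 1.42.0, limma-voom (limma 3.58.1), no robust dispersion, a replicate block, and each library left out; removal of each library's length trend was added after seeing the data. The edgeR scripts were tested on simulated data. Replicate libraries differed beyond counting noise, so all 6 were kept.

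The members, gene lists and paralogue pairs were chosen with earlier results of these data known. All 38 members are named, with values per library for called members, for members of paralogue pairs and for the most abundant of each role; other pathway genes are the 3 largest changes called in each direction with a mean of at least 5 CPM.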

Additional observations from a re-analysis of the deposited data

How the results depend on the processing

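Of 573 alternative values of the log2 fold changes of the 36 tested members, 531 kept direction and side of the threshold, 16 (in 4 members) lost a call, 7 (in 5 members) gained one and 19 (in 9 members) changed sign. Pfn2 and Rasgrp2 kept their calls in all of theirs. Leaving out 1 library gave 2 to 5 members higher, 0 to 4 lower, 901 to 3003 genes called among all, and 6 to 23 higher and 2 to 12 lower pathway genes. Library sizes alone gave 5 lower pathway genes. The same replicate numbers did not deviate together in both groups (r of 0.0163, 0.0885 and 0.0425), so the numbers were not taken as pairs. A fit with them as a block called 1510 genes, 2 members higher and 1 lower, and 9 and 4 pathway genes. Rac2, Vcl and Rap1b did not pass in it (adjusted p 0.0505, 0.0545 and 0.0640), with log2 fold changes of 0.33, -0.52 and -0.24.

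The sign changes all concern small differences that did not pass. Leaving out 1 library gave log2 fold changes of -0.115 to 0.0551 for Apbb1ip, -0.113 to 0.0433 for Sharpin, -0.164 to 0.145 for Ilk, -0.0538 to 0.0997 for Crk, -0.00371 to 0.0631 for Actn4, -0.0824 to 0.258 for Rhoa, -0.0678 to 0.0298 for Dock2, -0.0371 to 0.0947 for Pfn1 and -0.0915 to 0.0732 for Was. Library sizes alone gave 0.000203 for Sharpin and 0.0139 for Was. Removing the length trend gave -0.0245 for Ilk, 0.0370 for Dock2 and -0.00574 for Pfn1, and limma-voom gave -0.0354 for Ilk. The cause was not tested. The number of libraries limits the precision, and Bcar1 rests on few counts.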

Other observations

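The genes below were picked after their values were seen, from the wider list of integrin and actin genes, because they act on the same Rap1 step or adhesion site as members described above. Of the 19 tested genes of integrin activation in that list, 4 were called higher and 1 lower (26.3%, beside 12.6% of all tested genes). The 4 were Rasa3, given above, Rap1gap2, Skap1 and Rapgef4. Rap1gap2, a GTPase-activating protein that switches Rap1 off, had 1.77, 2.53 and 1.77 CPM in the DEL-1-Fc libraries, against 0.617, 0.539 and 0.637 CPM in the Fc libraries. It was low in both groups and without overlap (log2 fold change 1.76, SE 0.21, edgeR adjusted p = 0.000827). Other Rap1 inactivators of the list were not called. Among them Sipa1, far more abundant, had 160.5 CPM with DEL-1-Fc and 159.9 CPM with Fc. The log2 fold changes were 0.09 for Sipa1l1, -0.31 for Sipa1l3 and -0.42 for Rap1gap. Skap1, the T cell adaptor that brings RIAM and Rap1 to the membrane, had 111, 99.3 and 97.1 CPM in the DEL-1-Fc libraries, against 66.5, 72.4 and 71.2 CPM in the Fc libraries (log2 fold change 0.55, SE 0.07, edgeR adjusted p = 0.00147). Rapgef4, the cAMP-regulated Rap1 exchange factor Epac2, averaged 3.87 ± 0.402 CPM with DEL-1-Fc and 2.65 ± 0.262 CPM with Fc (log2 fold change 0.55, edgeR adjusted p = 0.0342). Its call was lost when any Fc library or DEL-1-Fc replicate 2 or 3 was left out. Stk4, the kinase Mst1, which is needed for integrin activation by Rap1 in lymphocytes, averaged 369 ± 21.1 CPM with DEL-1-Fc and 448 ± 10.7 CPM with Fc (log2 fold change -0.28, edgeR adjusted p = 0.0266), and its call was lost when any Fc library was left out.

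Among the 19 tested adhesion scaffolds and kinases of the wider list, 4 were called higher and 1 lower (26.3%, beside 12.6% of all tested genes). The 4 were Enah, given above, Lpxn, Tgfb1i1 and Tns1. Nck2 was called lower, with 12.9 ± 0.186 CPM with DEL-1-Fc and 15.8 ± 0.536 CPM with Fc (log2 fold change -0.29, edgeR adjusted p = 0.0371). Paxillin itself (Pxn) did not pass, while both of its relatives in the wider list were called higher. Lpxn, leupaxin, the paxillin of blood cells, had 35.4, 32.7 and 34.5 CPM in the DEL-1-Fc libraries, against 22.6, 23.3 and 22.6 CPM in the Fc libraries (log2 fold change 0.58, SE 0.06, edgeR adjusted p = 0.000653). Tgfb1i1, Hic-5, averaged 1.502 ± 0.478 CPM with DEL-1-Fc and 0.797 ± 0.0375 CPM with Fc (log2 fold change 0.92, SE 0.24, edgeR adjusted p = 0.0347). Its call was lost in limma-voom and when any library but DEL-1-Fc replicate 1 was left out. Tns1, tensin 1, which links integrin tails to actin, had 175, 169 and 144 CPM in the DEL-1-Fc libraries, against 111, 112.5 and 105 CPM in the Fc libraries (log2 fold change 0.57, SE 0.08, edgeR adjusted p = 0.00224). Rap1gap2, Skap1, Lpxn and Tns1 were called in each setting that tested them. Whether the difference between Pxn and its relatives exceeds chance was not tested.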
